A study of Mus musculus with 16 samples.

Results

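Fatty acid synthesis was described through 10 genes: Acly, Acss2, Me1, Acaca, Acacb, Fasn, Elovl6, Scd1, Scd2 and Srebf1. They were picked by gene symbol, 10 of the 24063 genes in each of 2 tables. The choice was made with earlier results of these data known, the decrease at 24 h among them. Counts of these genes beside those of all genes are therefore descriptions, not independent support. All 10 were found in both tables, and all 10 passed the filters on low values.

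The 16 libraries, in 6 groups, are RNA of the mouse line AtT-20, which derives from a corticotrope tumour. Cells carrying 3x flag-ER-Pax7, a fusion of Pax7 to a part of the oestrogen receptor, were sequenced untreated (0 h) and after 12, 24 and 96 h of 4-hydroxytamoxifen, which activates such fusions, with 3 libraries at each time. Untreated cells with 3x flag-Pax7 and untreated control cells with 3x flag-Neo had 2 libraries each. Pax7 is a transcription factor that opens chromatin and specifies the melanotrope, a second pituitary cell type that makes pro-opiomelanocortin. All cells were at passage 10 to 20 in medium with fetal bovine serum. Pax7 and Neo cells are 1 pair of populations, so Pax7 and any other difference between those populations cannot be told apart. No cells without the fusion but with 4-hydroxytamoxifen were analysed here, so the compound and the activation of ER-Pax7 cannot be told apart either. Whether replicates were separate cultures is not stated in the labels, and the p-values thus cover the spread between these libraries, which may be technical.

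In animal cells, fatty acids are built in the cytosol from acetyl-CoA. Acetyl-CoA comes from citrate or acetate, is carboxylated to malonyl-CoA, and is joined into palmitate with electrons from NADPH. Palmitate is then lengthened and desaturated, and sterol regulatory element-binding proteins, whose activity responds to sterols and insulin, drive most of these genes together. A pituitary endocrine cell uses the products for membranes, secretory granules included.

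The promoters of 8 of the 10 genes, all but Scd1 and Scd2, were matched to RefSeq (GRCm38.p6), in 11 windows of 250 bases before an annotated start. Shown are 4 of the genes that were lower at 24 h of 4-hydroxytamoxifen, from the one with most CCAAT boxes to one with none. Capitals mark CCAAT, or ATTGG where the box is on the other strand. This box is bound by the factor NF-Y, which is known to act beside sterol regulatory element-binding proteins at lipid genes. The windows are Fasn at chr11:120824548-120824797 (minus strand), Acss2 at chr2:155517793-155518042 (plus strand), Acacb at chr5:114165268-114165517 (plus strand) and Elovl6 at chr3:129532136-129532385 (plus strand).
Fasn: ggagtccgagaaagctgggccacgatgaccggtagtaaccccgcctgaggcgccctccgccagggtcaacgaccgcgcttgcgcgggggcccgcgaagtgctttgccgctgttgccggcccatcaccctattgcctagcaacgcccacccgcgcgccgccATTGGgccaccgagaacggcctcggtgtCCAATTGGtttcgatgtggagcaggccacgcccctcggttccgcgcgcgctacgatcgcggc
Acss2: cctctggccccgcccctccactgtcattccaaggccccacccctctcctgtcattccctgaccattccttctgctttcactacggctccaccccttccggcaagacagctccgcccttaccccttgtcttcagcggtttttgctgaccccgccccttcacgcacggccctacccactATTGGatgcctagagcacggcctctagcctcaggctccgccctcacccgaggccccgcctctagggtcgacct
Acacb: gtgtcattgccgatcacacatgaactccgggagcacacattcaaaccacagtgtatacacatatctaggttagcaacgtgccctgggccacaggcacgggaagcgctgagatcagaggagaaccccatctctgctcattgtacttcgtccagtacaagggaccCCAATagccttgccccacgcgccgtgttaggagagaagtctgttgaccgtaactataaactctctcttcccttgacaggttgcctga
Elovl6: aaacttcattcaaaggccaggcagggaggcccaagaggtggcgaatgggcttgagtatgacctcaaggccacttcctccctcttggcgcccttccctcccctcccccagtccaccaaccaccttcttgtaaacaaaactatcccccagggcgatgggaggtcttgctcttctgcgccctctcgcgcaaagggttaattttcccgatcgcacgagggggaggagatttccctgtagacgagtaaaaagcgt
Fasn had 3 boxes, whose last bases lay 86, 58 and 55 bases before the start. The 2 nearest the start overlap on opposite strands. Acss2 had 1 box ending 69 bases before the start, Acacb 1 ending 83 bases before it, and Elovl6 none in this window. Acly and Acaca, also lower at 24 h, had none in theirs, while Me1 and Srebf1, not called at 24 h, had windows with a box. The Me1 box lay before the start of NM_001198933. The window before NM_008615, the Me1 transcript counted in ER-Pax7 cells, had none. Whether the annotated starts are used in these cells was not tested. A link of the box to the decrease was not tested. CCAAT was found on either strand in 6 of the 11 windows, against 33.8% of 32851 windows of all genes. The GC box GGGCGG was in 5 of the 11, against 32.7% of all windows, and Acss2 had 4 of them. TCACNCCAC, letters of a sterol regulatory element, was in 0 of the 11 windows, against 1.05% of all windows, and the E-box CACGTG was in 0, against 6.02%. All of these motifs were searched on both strands, and a match is only a run of letters.

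The ER-Pax7 values are reads over the exons of each gene, scaled by the authors so that every library has the same total, and here divided by TMM normalization factors ("scaled exon reads"). The recovered depth was 61.4 to 88.7 M (mega) reads per library. Pax7 and Neo values are FPKM (fragments per kilobase, scaled for depth) over whole gene bodies, introns included, so no level was compared between the tables. The Pax7 gene itself averaged 2.32 ± 0.0537 FPKM in the Pax7 libraries, against 0.00522 ± 0.00738 in the Neo libraries (SD, n = 2 each), and in ER-Pax7 cells 1724 ± 39.3, 1743 ± 65.5, 1760 ± 104 and 1892 ± 27.0 scaled exon reads at 0, 12, 24 and 96 h (SD, n = 3 each). Among the libraries, replicate 2 at 12 h had 2.35% of its reads on the ribosomal RNA gene Rn45s, against 0.753% to 1.26% in the other 11. Replicate 1 at 24 h stood apart for the genes described here and is taken up with them. The 7 corticotrope markers were all detected, and the markers of adipocytes, hepatocytes, fibroblasts, immune cells and pituitary hormone cells other than corticotropes and melanotropes summed to at most 32.1 scaled exon reads per list in any ER-Pax7 library, and to at most 0.741 FPKM in any Pax7 or Neo library. The 4 melanotrope markers, Pax7 among them, summed to 1868 to 1957, 1958 to 2086, 2031 to 2236 and 2467 to 2575 scaled exon reads at 0, 12, 24 and 96 h, and to 4.36 to 4.46 FPKM in Pax7 libraries, against 0.0707 to 0.0940 in Neo libraries. A large part of the sums outside Neo cells was Pax7 itself, which was introduced into these cells, and Drd2 was at or near 0 in every group. Pcsk2 averaged 187 ± 6.23 scaled exon reads at 0 h and 517 ± 27.1 at 96 h, and Oacyl 1.59 ± 0.606 and 119 ± 4.12 (SD, n = 3 each). In Pax7 cells Pcsk2 averaged 1.28 FPKM and Oacyl 0.813, against 0.0719 and 0.00522 in Neo cells. The part of the markers in the results on the fatty acid synthesis genes was not tested.

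Per kilobase of exon, Scd2 stood highest at each time and Acacb lowest. At 0 h the order was Scd2 (2686 ± 197 scaled exon reads per kilobase), Acly (1141 ± 13.1), Fasn (499 ± 24.2), Me1 (425 ± 11.7), Srebf1 (349 ± 11.9), Scd1 (232 ± 6.61), Acss2 (209 ± 5.83), Acaca (186 ± 3.27), Elovl6 (118 ± 3.46) and Acacb (41.4 ± 1.88; SD, n = 3). No neighbours in this order overlapped at 0 h. At 12, 24 and 96 h the libraries of Fasn and Me1 overlapped, as did those of Acss2 and Acaca. Scd1 also overlapped its next neighbour at 12 and 24 h.

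Most of the genes were lower after 24 h of 4-hydroxytamoxifen, by small folds, and most of those were higher again at 96 h. At 24 h against 0 h, 7 of the 10 genes fell (Acly, Acss2, Acaca, Acacb, Fasn, Elovl6 and Scd1), by 0.15 to 0.39 on the log2 scale, where 7.92% of all genes tested were lower and 5.66% higher (limma, adjusted p under 0.05). Of the 10 genes, 9 had their lowest mean at 24 h, all but Me1. Already at 12 h, 3 had fallen (Acacb, Elovl6 and Scd1), against 3.61% of all genes lower and 2.92% higher. At 96 h, 2 were still below 0 h (Acss2 and Scd1), against 17.3% of all genes lower and 16.5% higher. From 24 h on, 6 rose by 96 h (Acly, Acacb, Fasn, Elovl6, Scd1 and Scd2), against 6.03% of all genes higher and 6.62% lower. None of the 10 differed between 24 h and 12 h by limma after adjustment, where 0.158% of all genes did; 2 had an unadjusted p under 0.05, and edgeR and DESeq2 called 0 each. Over all 4 times 8 differed, all but Me1 and Srebf1, against 30.3% of all genes. The median log2 fold of the 10 was -0.11 at 12 h, -0.17 at 24 h and -0.05 at 96 h against 0 h, and 0.16 at 96 h against 24 h, where that of all genes was 0.00 in each. The comparisons with 0 h share the 0 h libraries, and the 24 h libraries enter both the decrease and the increase after it.

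**Figure D1:**
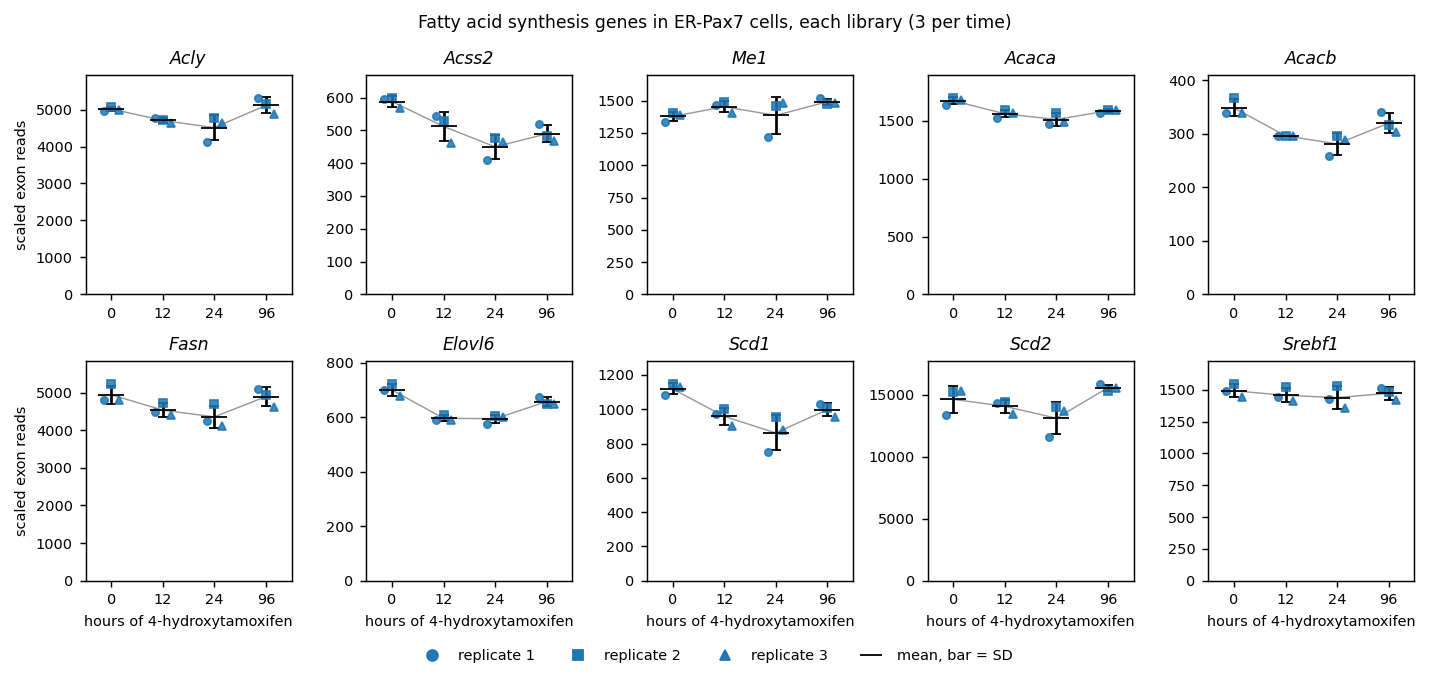
Scaled exon reads of the 10 genes (linear axes from 0) in each ER-Pax7 library against hours of 4-hydroxytamoxifen; points are libraries, bars the mean and SD of 3. The 24 h mean is the lowest for all but Me1, and replicate 1 at 24 h is the lowest library for 8 of the 10.

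The decreases were small, and 1 library bore on some of them. Replicate 1 at 24 h was the lowest of the 12 libraries for 8 genes, all but Fasn and Srebf1. Its summed level over the 10 genes was 26098 scaled exon reads, against 30326 and 29023 in the other 24 h libraries, and 30349, 32950 and 32309 at 0 h. Without it, 5 genes rather than 7 were lower at 24 h than at 0 h, and 1 rather than 6 was higher at 96 h than at 24 h. That last count was also 1 without replicate 1 at 96 h and 3 without replicate 2 at 96 h. The 24 h count against 0 h was also 5 without replicate 2 at 0 h. Without that 0 h library, 1 rather than 3 genes was lower at 12 h and 1 rather than 2 at 96 h. The 96 h count against 0 h was 1 also without replicate 2 or 3 at 96 h. The 7 corticotrope markers summed to 87177 to 89329 scaled exon reads at 24 h, against 105258 to 110189 at 0 h, a sum made up mostly of Pomc (74542 ± 1188 at 24 h, against 93039 ± 2623 at 0 h; SD, n = 3 each). The markers did not move together: by limma 3 were lower, 1 higher and 3 not called, and Neurod1 averaged 495.3 ± 12.4 at 24 h, against 422.9 ± 17.8 at 0 h, and Tbx19 2950 ± 110 at 24 h, against 2876 ± 84.3 at 0 h (SD, n = 3 each). Of 9 adipocyte markers, Adipoq and Lep were at 0 in both groups and the sum was 17.7 to 22.8 at 24 h, against 14.3 to 21.1 at 0 h. The sums of 6 fibroblast markers were 22.3 to 27.7 at 24 h (Dcn at 0), against 23.6 to 32.1 at 0 h (Col1a2, Col3a1, Dcn and Lum at 0). The part of the library and of the marker changes in the decrease was not tested beyond the values given. In bulk RNA, fewer cells of a type and less RNA per cell cannot be told apart.

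Acly, Acss2 and Me1 supply the pathway. Acly (RefSeq NM_001199296; mm10 chromosome 11, 100476352 to 100528000, minus strand) is the citrate lyase that makes cytosolic acetyl-CoA. It had 4969, 5079 and 4995 scaled exon reads at 0 h, 4769, 4705 and 4637 at 12 h, 4122, 4778 and 4632 at 24 h, and 5309, 5143 and 4884 at 96 h. The 24 h libraries were all below those of 0 h and of 96 h. The log2 fold at 24 h against 0 h was -0.16 (SE 0.04; limma, adjusted p = 0.0237), and Acly rose by 96 h against 24 h (log2 0.18, SE 0.04; limma, adjusted p = 0.00973), though not without replicate 1 at 24 h (0.0554) or replicate 1 at 96 h (0.0593). The decrease was not called without replicate 1 at 24 h (limma, adjusted p = 0.171) or without replicate 2 at 0 h (limma, adjusted p = 0.0719).

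Acss2 (NM_019811; mm10 chromosome 2, 155518043 to 155562743, plus strand), which makes acetyl-CoA from acetate, had the lowest log2 fold of the 10 at 24 h. It had 595.9, 598.2 and 568.7 scaled exon reads at 0 h, 545.1, 529.8 and 461.1 at 12 h, 408.1, 477.5 and 463.6 at 24 h, and 518.0, 483.0 and 466.7 at 96 h. No library of 12, 24 or 96 h reached those of 0 h. The log2 fold at 24 h was -0.39 (SE 0.06; limma, adjusted p = 1.17e-04), a level 0.764 times that of 0 h, and it was also lower at 96 h (-0.26, SE 0.06; limma, adjusted p = 0.0019). Both calls held with any 1 library of the compared groups left out. The 12 h value, -0.20 (limma, adjusted p = 0.0506), missed the threshold, and edgeR put it below (edgeR, adjusted p = 0.044).

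Me1 (NM_008615; mm10 chromosome 9, 86581363 to 86695914, minus strand) is malic enzyme 1, which makes cytosolic NADPH. It was the gene whose mean was not lowest at 24 h, with 1335, 1407 and 1391 scaled exon reads at 0 h, 1464, 1488 and 1408 at 12 h, 1222, 1456 and 1480 at 24 h, and 1520, 1475 and 1479 at 96 h. Replicate 1 at 24 h was low, and the other 24 h libraries were above all those of 0 h. No difference was called by limma: the log2 fold was 0.00 at 24 h (SE 0.05; limma, adjusted p = 0.977) and 0.11 at 96 h (SE 0.05; limma, adjusted p = 0.0958), where the authors' deposited table gives Me1 a false discovery rate of 0.0367 at 96 h.

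Both acetyl-CoA carboxylases fell at 24 h. Acaca (NM_133360; mm10 chromosome 11, 84195438 to 84401651, plus strand) is the cytosolic form whose malonyl-CoA feeds synthesis. It had 1640, 1696 and 1683 scaled exon reads at 0 h, 1527, 1589 and 1565 at 12 h, 1472, 1571 and 1490 at 24 h, and 1567, 1597 and 1595 at 96 h. Every induced library was below those of 0 h, and only the 24 h difference was called (log2 -0.15, SE 0.03; limma, adjusted p = 0.00428). At 96 h it was -0.08 (limma, adjusted p = 0.0851).

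Acacb (NM_133904; mm10 chromosome 5, 114165518 to 114250758, plus strand) lies at the mitochondrion, where its malonyl-CoA restrains the entry of fatty acids for oxidation. It had 339.7, 367.0 and 339.4 scaled exon reads at 0 h, 296.1, 296.5 and 296.8 at 12 h, 258.8, 296.7 and 288.4 at 24 h, and 340.7, 316.4 and 303.4 at 96 h. The 12 and 24 h libraries were below all those of 0 h, and 96 h overlapped 0 h. The log2 fold was -0.23 at 12 h (SE 0.05; limma, adjusted p = 0.0086) and -0.31 at 24 h (SE 0.05; limma, adjusted p = 3.29e-04), and 0.19 at 96 h against 24 h (SE 0.05; limma, adjusted p = 0.0242). The rise at 96 h was not called without replicate 1 at 24 h (limma, adjusted p = 0.133), replicate 1 at 96 h (0.14) or replicate 2 at 96 h (0.0613), and the 12 h call was lost without replicate 2 at 0 h (limma, adjusted p = 0.0581).

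Fasn (NM_007988; mm10 chromosome 11, 120805958 to 120824547, minus strand), the fatty acid synthase that assembles palmitate, had 4810, 5216 and 4792 scaled exon reads at 0 h, 4471, 4733 and 4392 at 12 h, 4246, 4688 and 4123 at 24 h, and 5104, 4946 and 4626 at 96 h. Every 24 h library was below those of 0 h, and the 96 h libraries overlapped both groups. The log2 fold at 24 h was -0.18 (SE 0.05; limma, adjusted p = 0.014), a level 0.880 times that of 0 h, and at 96 h against 24 h it was 0.17 (SE 0.05; limma, adjusted p = 0.0249). The decrease was not called without replicate 1 at 24 h (limma, adjusted p = 0.0645), replicate 3 at 24 h (0.0618) or replicate 2 at 0 h (0.0794). The rise was lost without replicate 1 or 3 at 24 h and without replicate 1 or 2 at 96 h, with limma adjusted p up to 0.126.

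Elovl6 (NM_130450; mm10 chromosome 3, 129532386 to 129638493, plus strand), which lengthens palmitate to stearate, had fallen by 12 h and was as low at 24 h. It had 701.3, 721.3 and 680.2 scaled exon reads at 0 h, 590.2, 610.5 and 589.9 at 12 h, 577.2, 605.5 and 602.6 at 24 h, and 676.0, 650.0 and 647.6 at 96 h. The 96 h libraries lay between the 0 h libraries and all those of 12 and 24 h. The log2 fold was -0.23 at 12 h (SE 0.04; limma, adjusted p = 2.59e-04) and -0.24 at 24 h (SE 0.04; limma, adjusted p = 1.16e-04), and both held with any 1 library of the compared groups left out. At 96 h Elovl6 was higher than at 24 h (log2 0.14, SE 0.04; limma, adjusted p = 0.0121), a call lost without replicate 1 at 24 h (limma, adjusted p = 0.055) or without replicate 1 at 96 h (limma, adjusted p = 0.0658).

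Scd1 and Scd2 are stearoyl-CoA desaturases, which put a double bond into stearate and palmitate. Scd1 (NM_009127; mm10 chromosome 19, 44394450 to 44407709, minus strand), the form known from liver and fat, had 1083, 1145 and 1127 scaled exon reads at 0 h, 973.7, 1001 and 901.4 at 12 h, 751.7, 952.5 and 881.7 at 24 h, and 1031, 1007 and 955.1 at 96 h. All induced libraries were below those of 0 h. The log2 fold was -0.22 at 12 h (SE 0.06; limma, adjusted p = 0.0282), -0.38 at 24 h (SE 0.06; limma, adjusted p = 1.40e-04) and -0.16 at 96 h (SE 0.06; limma, adjusted p = 0.0412). The 24 h call held with any 1 library of the compared groups left out, those of 12 and 96 h did not (limma, adjusted p up to 0.125 and 0.158). Both were lost without replicate 2 or without replicate 3 at 0 h, the 12 h call also without replicate 3 at 12 h, and the 96 h call also without replicate 2 or replicate 3 at 96 h. Scd1 rose by 96 h against 24 h (log2 0.22, SE 0.06; limma, adjusted p = 0.0207), but not without replicate 1 at 24 h (limma, adjusted p = 0.121), replicate 1 at 96 h (0.0912) or replicate 2 at 96 h (0.0741).

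Scd2 (NM_009128; mm10 chromosome 19, 44293676 to 44306862, plus strand), the form known from brain, had 13384, 15178 and 15293 scaled exon reads at 0 h, 14347, 14398 and 13425 at 12 h, 11612, 13969 and 13709 at 24 h, and 15824, 15326 and 15522 at 96 h. The 96 h libraries were above all others, and the 24 h libraries overlapped those of 0 h. The log2 fold at 24 h against 0 h, -0.16 (SE 0.06; limma, adjusted p = 0.0859), was not called. That at 96 h against 0 h, 0.09 (SE 0.06; limma, adjusted p = 0.256), was not called either. At 96 h Scd2 was higher than at 24 h (log2 0.25, SE 0.06; limma, adjusted p = 0.0076), and this was the only rise of the 6 to hold with any 1 library of the compared groups left out.

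The balance of the 2 desaturases moved with time. The log2 ratio of Scd2 to Scd1 within a library was 3.71 ± 0.0700, 3.87 ± 0.0259, 3.93 ± 0.0461 and 3.96 ± 0.0517 at 0, 12, 24 and 96 h (SD, n = 3 each). Each library of 12, 24 and 96 h was above each of 0 h. An exact permutation test of the F statistic over all 369600 arrangements of the 12 libraries gave p = 0.0024 (0.00481 adjusted over 2 ratios). The log2 ratio of Acacb to Acaca was -2.26, -2.39, -2.42 and -2.31 at the 4 times, a difference not called (exact permutation p = 0.0568), although without replicate 1 or replicate 3 at 96 h the exact permutation p was 0.0177 or 0.031. Of the 50-base windows of the Scd1 transcript, 3.03% also occur in Scd2, 3.49% in Scd3 and 1.76% in Scd4, and 2.68% of those of Scd2 occur in Scd1. Reads of such windows could be split between these copies. As Scd2 averaged 14618 scaled exon reads at 0 h, against 1118 for Scd1, they could weigh more on Scd1 and on the ratio, which was not tested. No windows are shared by Acaca and Acacb.

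**Figure D2:**
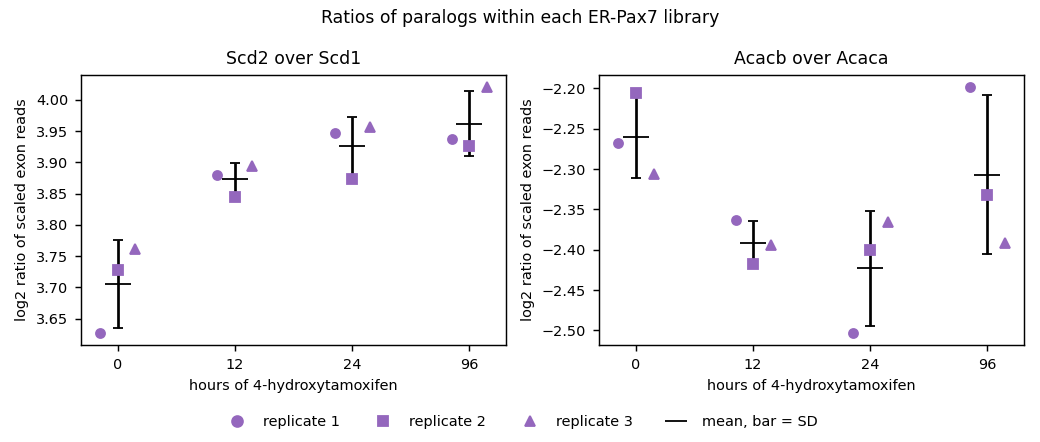
Log2 ratio of scaled exon reads of Scd2 to Scd1 and of Acacb to Acaca in each ER-Pax7 library against hours of 4-hydroxytamoxifen, with mean and SD of 3; the axes do not start at 0. The Scd2 to Scd1 ratio is 3.71 at 0 h and 3.96 at 96 h, with the 0 h libraries below all others.

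Srebf1 (NM_011480; mm10 chromosome 11, 60199089 to 60220604, minus strand) encodes sterol regulatory element-binding protein 1, a factor known to drive many of these genes. Its own transcript had 1493, 1542 and 1440 scaled exon reads at 0 h, 1440, 1518 and 1410 at 12 h, 1429, 1532 and 1353 at 24 h, and 1516, 1483 and 1418 at 96 h. All 4 times overlapped. The log2 fold at 24 h was -0.05 (SE 0.04; limma, adjusted p = 0.482) and no difference over the 4 times was called (limma, adjusted p = 0.761). A transcript level says nothing of the cleavage that activates this protein.

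Between the libraries the genes went up and down together to different degrees. Pearson's r of each gene with the mean of the other 9 over the 12 libraries was highest for Scd1 (0.954) and lowest for Me1 (0.367), with Srebf1 at 0.570. Of the 15178 other genes tested, those most like the mean of the 10 were Acat2 (r = 0.972), Lss (0.968), 4930483K19Rik (0.959), Hsd17b7 (0.953) and Cyp51 (0.943). Acat2 is a cytosolic acetoacetyl-CoA thiolase, and Lss, Hsd17b7 and Cyp51 are enzymes of cholesterol synthesis. These values describe 12 libraries of 1 cell line at 4 times, which share those times. Replicate 1 at 24 h lay farthest down, with a mean z-score (distance from each gene's mean in SD) of -1.82 over the 10 genes. The next lowest was -0.869, in replicate 3 at 24 h. The correlations were not computed without replicate 1 at 24 h.

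**Figure D3:**
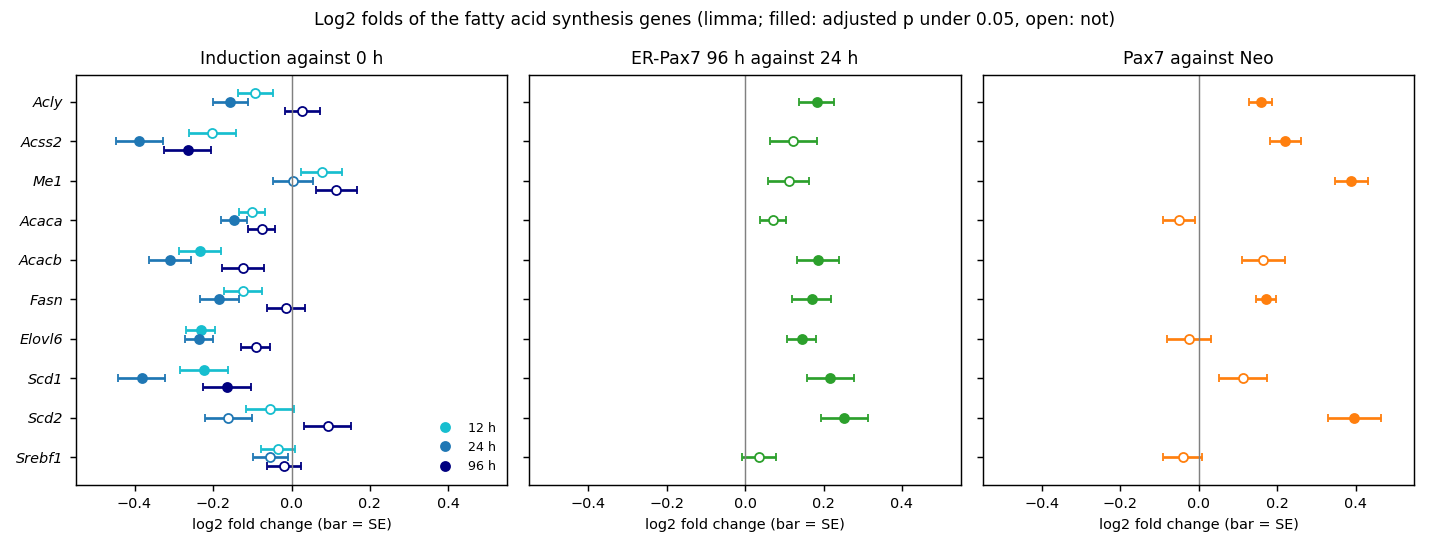
Log2 folds of the 10 genes at 12, 24 and 96 h against 0 h, at 96 h against 24 h, and in Pax7 against Neo cells (x axis, bars are SE; filled points have an adjusted p under 0.05 in limma). Most 24 h folds lie left of 0, from -0.39 for Acss2, while most of the other 2 panels lie right of 0.

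In Pax7 cells, limma called 5 of the 10 genes higher than in Neo cells, by 0.16 to 0.40 on the log2 scale: Acly, Acss2, Me1, Fasn and Scd2. Among all genes tested 18.1% were higher and 18.5% lower. The median log2 fold of the 10 was 0.16 and that of all genes 0.00. Acss2, Acly and Fasn, lower at 24 h of ER-Pax7 activation, were thus higher in this pair of populations.

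**Figure D4:**
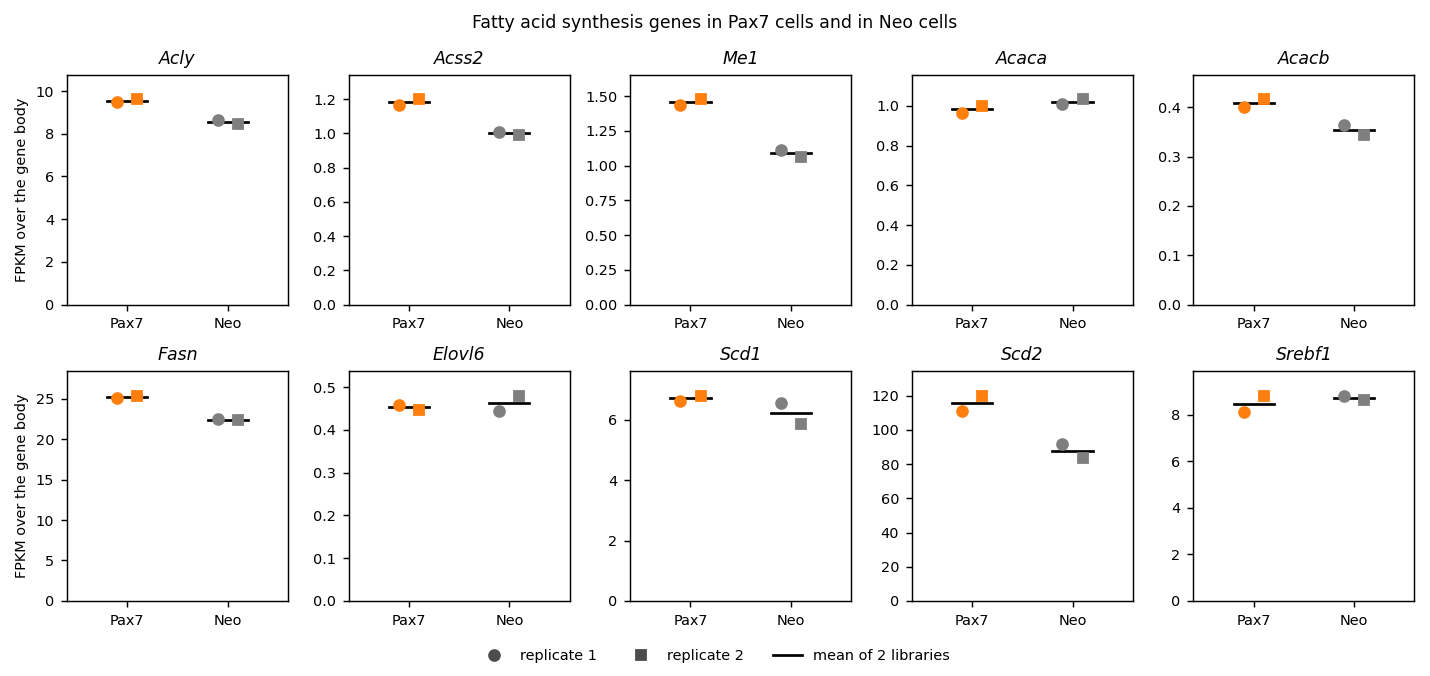
FPKM over the gene body of the 10 genes (linear axes from 0) in the 2 Pax7 and the 2 Neo libraries; the line is their mean. Libraries of the 2 populations do not overlap for Acly, Acss2, Me1, Fasn and Scd2, whose difference was called, nor for Acaca, Acacb and Scd1, and overlap for Elovl6 and Srebf1. The share of all genes without overlap was not counted, and groups of 2 can separate without a difference.

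Scd2 and Me1 differed most. Scd2 had 110.9 and 120.1 FPKM in Pax7 cells, against 91.90 and 83.64 in Neo cells, a log2 fold of 0.40 (SE 0.07; limma, adjusted p = 0.0192). Me1 (here counted over NM_001198933; mm10 chromosome 9, 86581363 to 86687277) had 1.434 and 1.478 FPKM in Pax7 cells, against 1.111 and 1.065 in Neo cells, a log2 fold of 0.39 (SE 0.04; limma, adjusted p = 0.00785). Me1 was the only one of the 5 whose call held with any 1 library left out.

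The acetyl-CoA suppliers and the synthase were higher by less. Acss2 had 1.166 and 1.200 FPKM in Pax7 cells, against 1.010 and 0.9919 in Neo cells (log2 0.22, SE 0.04; limma, adjusted p = 0.0202). Acly had 9.483 and 9.621 FPKM in Pax7 cells, against 8.666 and 8.436 in Neo cells (log2 0.16, SE 0.03; limma, adjusted p = 0.0243). Fasn had 25.14 and 25.38 FPKM in Pax7 cells, against 22.43 and 22.41 in Neo cells (log2 0.17, SE 0.03; limma, adjusted p = 0.0147). The groups did not overlap for any of these, but without any 1 library no call held (limma, adjusted p up to 0.101 for Acss2, 0.137 for Acly and 0.0988 for Fasn). Scd2 kept its call in 2 of the 4 such fits, not without replicate 2 of Pax7 or replicate 2 of Neo.

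The others were not called. Acacb had 0.4015 and 0.4166 FPKM in Pax7 cells, against 0.3636 and 0.3445 in Neo cells (log2 0.17; limma, adjusted p = 0.0839). Scd1 had 6.625 and 6.804 FPKM in Pax7 cells, against 6.545 and 5.878 in Neo cells (log2 0.11; limma, adjusted p = 0.222). Acaca had 0.9656 and 1.002 FPKM in Pax7 cells, against 1.010 and 1.034 in Neo cells (log2 -0.05; limma, adjusted p = 0.393). Elovl6 and Srebf1 overlapped, with log2 folds of -0.02 and -0.04 (limma, adjusted p = 0.762 and 0.555). The log2 ratio of Scd2 to Scd1 was 4.07 and 4.14 in Pax7 cells, against 3.81 and 3.83 in Neo cells. Scaled to library totals without TMM factors, Acaca, Elovl6 and Srebf1 turn positive, and the split of all called genes shifts to 2599 higher and 1241 lower, from 2424 and 2482.

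The authors' deposited table gives a false discovery rate under 0.05 to 6 of the 10 genes at 24 h against 0 h, with the same direction in each, Acly (0.0621) being outside. At 12 h against 0 h the authors' deposited table has 3 of the 10 under 0.05, Acacb, Elovl6 and Scd1, and at 24 h against 12 h it has 0. At 96 h against 0 h the authors' deposited table has 3, Acss2 and Scd1 (lower) and Me1 (higher, 0.0367), the last of which was not called here. At 96 h against 24 h the authors' deposited table has 4 rather than 6, Acacb (0.138) and Elovl6 (0.134) being outside. For Pax7 against Neo cells the authors' deposited table has none of the 10 among its 24 genes under 0.05. From the same 4 libraries limma called 4906 of 13393 genes here, and the reason for this gap was not tested. The deposited log2 fold is exactly 0 for Acaca, Acacb, Elovl6, Me1 and Acss2. These had the lowest levels of the 10 in both populations, with group means of at most 1.46 FPKM.

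Genes next to these in lipid metabolism were counted in 7 lists, with calls by limma. Beside them, 7.92% of all genes tested were lower and 5.66% higher at 24 h against 0 h, 6.62% lower and 6.03% higher at 96 h against 24 h, and 18.5% lower and 18.1% higher in Pax7 against Neo cells. The median log2 fold of all genes was 0.00 in each of these comparisons. Of 12 tested genes of citrate, acetyl-CoA and NADPH supply, 5 were called at 24 h against 0 h, all lower, among them Aacs (acetoacetyl-CoA synthetase, log2 -0.41), Acat2 (-0.33) and Idh1 (cytosolic isocitrate dehydrogenase, -0.15). In Pax7 cells 5 of 11 were higher and 1 lower than in Neo cells, Acat2 (0.53) and Idh1 (0.47) being higher and Taldo1, a transaldolase, lower (-0.28). At 96 h against 24 h, 2 of the 12 were called, both higher. The list's median log2 fold was -0.11 at 24 h against 0 h and 0.14 in Pax7 against Neo cells.

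Of 21 tested elongation and desaturation genes outside the 10, 5 fell at 24 h against 0 h and 1 rose. Of those that fell, Fads2 (-0.47) and Fads1 (-0.23), desaturases of polyunsaturated fatty acids, had the smallest adjusted p. Ptpla, a dehydratase of elongation, rose (0.30). In Pax7 cells 7 of 18 were higher and 1 lower than in Neo cells: Elovl5 (0.62) and Hsd17b12, the ketoreductase of elongation (0.48), were higher, and Elovl4 (-0.35) lower. At 96 h against 24 h, 5 of the 21 were called, all higher, Hsd17b12 by 0.26, against 6.03% of all genes higher. The list's median log2 fold was -0.05 at 24 h against 0 h, 0.09 at 96 h against 24 h and 0.19 in Pax7 against Neo cells, that of all genes being 0.00. Among all genes 7.92% fell and 5.66% rose at 24 h, and 18.1% were higher and 18.5% lower in Pax7 against Neo cells.

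Of 22 lipogenic control genes, 4 fell and 2 rose at 24 h against 0 h, where 7.92% of all genes fell and 5.66% rose; the list's median log2 fold was -0.03, against 0.00 for all genes. Insig1, which holds the sterol-sensing complex in the endoplasmic reticulum and is itself a target of the binding proteins, fell (-0.32), and Insig2 (0.23) and Mlxipl, a glucose-responsive factor (0.29), rose. Srebf2, the sterol counterpart of Srebf1, fell by 0.17 (limma, adjusted p = 0.0322), and Mid1ip1, which promotes acetyl-CoA carboxylase activity, by 0.26. In Pax7 cells 9 of 21 were higher and 1 lower than in Neo cells (median 0.09), against 18.1% and 18.5% of all genes, with Insig1 (0.53), Insig2 (0.52), Mlxipl (0.52), Thrsp (0.63) and Trib1 (0.64) higher and Trib3 (-0.57) lower.

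The 22 sterol synthesis and uptake genes, which are driven by the same family of factors, held the most calls of the 7 lists at 24 h. At 24 h against 0 h, 17 were lower and 1 higher, with a median log2 fold of -0.35, against 0.00 for all genes. Hmgcs1, the cytosolic synthase of the mevalonate pathway, had -0.73 and Idi1 -0.46, while Stard4, a sterol carrier, was higher (0.24). At 96 h against 24 h, 12 were called, all higher (median 0.22), and in Pax7 against Neo cells 14 of 21, all higher (median 0.35), with Cyp51 at 0.62 and Dhcr7 at 0.72. At 96 h against 0 h, 11 of the 22 were still lower and 2 higher (median -0.15), against 17.3% and 16.5% of all genes. Hmgcs1 was then at -0.59. The summed level of the list was 20210, 24404 and 24297 scaled exon reads at 24 h, against 29399, 30952 and 30043 at 0 h. Replicate 1 at 24 h was the lowest of the 12 libraries here too.

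The last lists cover the use and storage of fatty acids and their synthesis in mitochondria. Of 22 activation and glycerolipid genes 5 fell and 1 rose at 24 h against 0 h (median -0.04), against 7.92% and 5.66% of all genes, the lowest p being that of Acsl3, an acyl-CoA synthetase (-0.24), with Lpin2, a phosphatidate phosphatase (-0.25), after it. In Pax7 cells 6 of 22 were higher and 4 lower than in Neo cells, with a median log2 fold of -0.01, and 18.1% of all genes were higher and 18.5% lower, with a median of 0.00. Fabp5, a fatty acid carrier, was higher (0.89) and Plin3, a lipid droplet coat gene, lower (-0.54). Of 24 oxidation genes, limma called 1 at 24 h against 0 h, edgeR 1 and DESeq2 2. The one limma called was Cpt1a, the gatekeeper of mitochondrial uptake, which was lower (-0.38), lower again at 96 h against 24 h (-0.28), and lower in Pax7 against Neo cells (-0.50). In Pax7 cells 8 of 22 oxidation genes were lower and 1 higher than in Neo cells, with a median of -0.03. None of 9 mitochondrial fatty acid synthesis genes was called at 24 h against 0 h by limma, where 2 had an unadjusted p under 0.05 and edgeR and DESeq2 called 0 each. In Pax7 cells 2 of the 9 were higher and 3 lower than in Neo cells (median -0.06), where 18.1% and 18.5% of all genes were.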

How the data were processed

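Total RNA depleted of ribosomal RNA was sequenced as paired ends, per the labels' protocols. The build mm10 (GRCm38) and the tools TopHat, HOMER and edgeR appear, with no version, per the submitters' processing notes. The authors deposited the ER-Pax7 table as signal values, exon reads per RefSeq gene scaled to a common library total, per the file headers, and the Pax7 and Neo table as FPKM over gene bodies, per the file headers, both without a strand option, so overlapping and antisense genes cannot be separated. The authors' deposited log2 folds and deposited p-value and FDR columns were used only for comparison.

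Whole reads could be recovered from the ER-Pax7 values (100.0% whole within a tolerance of 0.1 reads). TMM factors came from edgeR 4.0.16. After division by them, log2(value + 1), or + 0.1 for FPKM, was tested with limma 3.58.1 (R 4.3.3), with the trend option. Genes reaching 1 in at least 3 ER-Pax7 libraries (15188) or 0.1 FPKM in at least 2 libraries (13393) were tested, all 12 ER-Pax7 libraries in 1 model. Adjustment was by Benjamini-Hochberg over all genes tested, with a threshold of 0.05. Folds on this scale understate the change of low genes. Errors are the spread between libraries. Scripts were tested on simulated data. edgeR and DESeq2 1.42.0 on recovered reads, other scalings, pseudocounts, filters, left-out libraries and a replicate block were tried.

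The genes and lists were chosen with earlier results of these data known. Beside the 10 genes, those named were, by rule, the called members of each list with the smallest adjusted p in each direction (up to 2) at 24 h against 0 h and in Pax7 against Neo cells, a few regulators, and the 5 genes most alike. Promoter sequences are from RefSeq.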

Additional observations from a re-analysis of the deposited data

Results flagged for a closer look

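For 5 of the 10 genes the libraries separated in opposite directions in the 2 systems. All Pax7 libraries were above all Neo libraries, while all 24 h libraries of ER-Pax7 were below all 0 h libraries. The share of all genes that did so was not counted, and groups this small can separate without a difference, so the count is only a description. Acly had a log2 fold of 0.16 in Pax7 over Neo and -0.16 at 24 h over 0 h, and in the same order the folds were 0.22 and -0.39 for Acss2, 0.17 and -0.31 for Acacb, 0.17 and -0.18 for Fasn, and 0.11 and -0.38 for Scd1. For Acss2 and Scd1 the 96 h libraries were all below 0 h too, with log2 folds of -0.26 and -0.16. The Pax7 against Neo folds of Acacb and Scd1 were not called (limma, adjusted p = 0.0839 and 0.222). Those of Acly, Acss2 and Fasn were called, but none of these calls held with any 1 library left out. The difference between the systems was not tested, since the tables hold different units and counted regions. Groups of 2 or 3 libraries are too small for a test of single outlying libraries.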

How the results depend on the processing

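Of the values of single genes, under other settings 523 kept their direction and side of the threshold, 7 reversed, 13 lost the call and 17 gained one. With 1 library left out, 274 kept both, 17 reversed, 41 lost the call and 8 gained one. The count of genes lower or higher among the 10 moved with the replicate block to 6 (12 h against 0 h), 4 (96 h against 0 h) and 2 (Pax7 against Neo). DESeq2 gave 5 at 12 h. Without a filter on low values, which tests more genes, it was 2, 5 and 1 at 12, 24 and 96 h against 0 h, and 3 at 96 h against 24 h. At 24 h against 0 h, Acly (limma, adjusted p = 0.0718) and Fasn (0.0554) then lost their calls. With replicate 1 at 24 h and replicate 2 at 12 h both left out, a setting chosen after seeing the data, the count was 5 at 96 h against 0 h. It was then 6, 4 and 4 at 24 h against 0 h, 96 h against 24 h and 12 h against 0 h. On recovered whole reads, edgeR called 996, 2041 and 5133 genes at 12, 24 and 96 h against 0 h and 1952 at 96 h against 24 h, with 4, 7, 2 and 6 of the 10 among them. The count over all genes at 24 h against 12 h, 24, was 53 with the block, 89 by DESeq2 and 12 without both libraries.

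Leaving out 1 library at a time, the 10 genes gave 1 to 4 calls (12 h against 0 h), 5 to 8 (24 h against 0 h), 1 to 3 (96 h against 0 h), 0 to 0 (24 h against 12 h), 1 to 6 (96 h against 24 h), 7 to 8 (4 times) and 1 to 2 (Pax7 against Neo). All genes gave 709 to 880, 1458 to 1868, 4141 to 4583, 11 to 31, 1260 to 1732, 3541 to 4752 and 1957 to 2734 in the same order, against 992, 2063, 5129, 24, 1921, 4600 and 4906. The exact permutation p of the Scd2 to Scd1 ratio was 0.000909 to 0.00565, and that of Acacb to Acaca 0.0177 to 0.132.

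Log2 folds near 0 changed sign with 1 library left out. The ranges over the libraries left out were -0.0492 to 0.0918 for Me1 at 24 h against 0 h, -0.0007 to 0.0612 for Acly, -0.0452 to 0.0273 for Fasn and -0.044 to 0.01 for Srebf1 at 96 h against 0 h, -0.1063 to 0.0004 for Acly, -0.1229 to 0.0149 for Me1, -0.0171 to 0.0174 for Elovl6 and -0.0655 to 0.0247 for Srebf1 at 24 h against 12 h, -0.0053 to 0.0820 for Srebf1 at 96 h against 24 h, and -0.0706 to 0.0215 for Elovl6 and -0.1112 to 0.0185 for Srebf1 in Pax7 against Neo cells. With both libraries left out, Me1 (0.0286), Elovl6 (0.0302) and Srebf1 (0.0116) turned positive at 24 h against 12 h. With library totals, Elovl6 (0.0098) did at 24 h against 12 h, and Acaca (0.0196), Elovl6 (0.0385) and Srebf1 (0.0349) did in Pax7 against Neo cells. The cause was not tested.

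Replicate numbers do not pair the libraries by the labels. Same-numbered ER-Pax7 libraries correlated in their deviations from -0.26 to 0.55, over 0.1 in 15 of 18 pairs, the other 3 all with replicate 1 at 24 h, and 10 of 12 libraries correlated best with their own number. With the replicate block, all genes gave 1246, 2538, 5755, 53, 2515, 5456 and 3299 calls in the order above. Under the block, limma also called lower Scd2 at 24 h against 0 h (adjusted p = 0.0328), Acss2 (0.0245), Acaca (0.0245) and Fasn (0.0202) at 12 h, and Acaca (0.033) and Elovl6 (0.0395) at 96 h, while Acly (0.0661), Acss2 (0.058) and Scd2 (0.0584) were not called in Pax7 against Neo cells. The spread between 2 or 3 libraries limits how small a fold can be called.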
